A study of Mus musculus with 9 samples.

Results

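Transcripts of 10 interleukin receptor genes were followed in mouse CD8+ T cells that had, or had not, been cultured with stromal cells carrying labelled mitochondria. The genes were chosen by symbol: the IL-2 receptor chains Il2ra, Il2rb and Il2rg, the IL-12 receptor chains Il12rb1 and Il12rb2, the IL-18 receptor chains Il18r1 and Il18rap, and the ligand-binding chains Il21r, Il4ra and Il10ra. All 10 were found among the 55421 genes of the deposited count table, and all 10 were among the 15711 genes kept by the filter on low counts. Between 999 and 67617 reads were counted for each of them in each library.

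The cells came from spleens of Pmel Ly5.1 mice, a cross that gives CD8+ T cells a transgenic T cell receptor for a melanoma antigen and a congenic CD45 marker, and all 3 groups share that genotype. For 2 groups the T cells were co-cultured for 36 h with DM5, a single immortalised line of bone marrow mesenchymal stromal cells from BL6 mice whose mitochondria carried the red protein DsRed. They were then sorted on CD8 into cells with DsRed (MitoPositive) and cells without it (MitoNegative). The third group is a monoculture control that never met DM5. The titles of all 9 libraries carry a time of 0 h, and how it relates to the 36 h is not given in the labels. Each group has 3 libraries of total RNA, lettered B, C and D. The labels give no age and do not say whether the letters stand for separate animals, so the p-values measure the spread between these libraries, which may be technical. Because the sorted groups differ from the monoculture in more than 1 step, co-culture, sorting and any difference in handling cannot be told apart. Sorting on DsRed likewise compares cells by what they carried, not cells assigned to a treatment.

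Interleukin receptors are built from chains that are shared and recombined. Il2ra (CD25) raises the affinity of the IL-2 receptor, Il2rb is shared by the receptors for IL-2 and IL-15, and Il2rg is the common gamma chain, also used for IL-4, IL-7, IL-9 and IL-21. These chains signal through JAK kinases and STAT factors, whereas the IL-18 receptor belongs to the IL-1 receptor family and signals through Myd88 and IRAK kinases. In activated CD8+ T cells, IL-2 is known for driving growth and granzyme expression, and IL-12 with IL-18 for driving interferon gamma.

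The libraries held between 53546152 and 74722832 counted reads. The 8 listed CD8+ T cell markers summed to between 5920 and 7530 CPM, the read count scaled to a common library size, in every library. Against monoculture, 5 of the 8 were lower in MitoPositive and 6 in MitoNegative cells, and 0 were higher (edgeR, adjusted p under 0.05). The shares of all genes called lower were 19.9% and 18.3%. The 10 B cell markers summed to 691 to 764 CPM in monoculture, 371 to 466 in MitoNegative and 280 to 313 in MitoPositive libraries, most of it Ighm. The 14 stromal markers summed to 0.737 to 1.15, 11.9 to 33.7 and 12.4 to 32.9 CPM in the same order, and 8 of them were at 0 in monoculture. Sums for myeloid, dendritic and natural killer cell markers reached at most 4.76 CPM in a library, and Csf3r, Siglech and Cd209a were at 0 throughout. In bulk RNA, fewer cells of a type and less RNA per cell cannot be told apart.

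The 250 bases before the start of transcription are shown for Il2ra and Il12rb2, the genes with the largest fold and the smallest adjusted p among the 10 in the comparisons with monoculture. Both come from RefSeq on GRCm38.p6, read 5′ to 3′ on the gene's strand. Il2ra is at chr2:11642542-11642791 on the plus strand and Il12rb2 at chr6:67376189-67376438 on the minus strand. Capitals mark the STAT motif TTCNNNGAA.
Il2ra: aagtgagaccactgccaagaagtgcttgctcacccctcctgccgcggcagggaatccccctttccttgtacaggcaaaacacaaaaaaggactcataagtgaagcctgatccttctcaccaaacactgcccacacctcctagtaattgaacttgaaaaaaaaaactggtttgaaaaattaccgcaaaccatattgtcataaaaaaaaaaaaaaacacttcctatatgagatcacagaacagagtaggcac
Il12rb2: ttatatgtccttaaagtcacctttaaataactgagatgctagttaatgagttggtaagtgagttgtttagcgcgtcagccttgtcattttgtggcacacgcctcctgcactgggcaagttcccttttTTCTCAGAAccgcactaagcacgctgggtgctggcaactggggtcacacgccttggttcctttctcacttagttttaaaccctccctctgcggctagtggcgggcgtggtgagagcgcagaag
Both strands were searched for 4 letter strings: TTCNNNGAA for STAT factors, TGANTCA for AP-1, GGAAAA for NFAT and AGGTGTGA for T-box factors. The Il12rb2 window held 1 STAT motif, TTCTCAGAA, which starts at base -123 counted back from the start of transcription, and none of the other 3. The Il2ra window held none of the 4. In all, 7 of the 10 genes were matched to 9 such windows, and Il2rb, Il12rb1 and Il10ra were not matched. Apart from Il12rb2, only 1 of the 3 windows of Il18r1 held any of the strings, with STAT motifs starting at bases -219 and -152 and an NFAT motif at -33. Of 32851 mouse promoter windows of the same length, 7.02% held the STAT motif, 6.75% the AP-1 motif, 20.4% the NFAT motif and 1.12% the T-box motif. A match describes letters only and shows no bound factor.

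Against monoculture, 9 of the 10 receptor genes rose in MitoPositive and 7 rose in MitoNegative cells, and none fell in either comparison (edgeR quasi-likelihood test, Benjamini-Hochberg adjusted p under 0.05 over all 15711 genes). The background was 22.3% of all genes called higher in MitoPositive cells against monoculture, with 19.9% called lower and 42.2% in either direction. It was 20.6% higher, 18.3% lower and 38.9% in either direction for MitoNegative cells. The median log2 fold change of the 10 genes was 0.96 for MitoPositive and 0.58 for MitoNegative cells, beside medians over all genes of 0.003 and 0.009. All 3 MitoPositive libraries lay above all 3 of monoculture for 9 of the 10 genes, beside 27.3% of all genes, and all 3 MitoNegative libraries did so for 8 of the 10, beside 25.9%. Il4ra, the IL-4 binding chain, was the 1 gene that passed in neither comparison. These comparisons share the monoculture libraries, so they are not independent of each other.

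Between the sorted groups, none of the 10 receptor genes passed, beside 0.165% of all genes called (26 genes, 0.0891% called higher). At an unadjusted p under 0.05, 6 of the 10 passed, beside 10.5% of all genes. DESeq2 called 4 of the 10, beside 2.66% of all genes, and limma voom called 0 of them, beside 0.21%. Libraries of these groups with the same letter deviated together, with correlations of 0.402, 0.339 and 0.459, and adding the letter to the fit as a block gave 3 calls among the 10, each higher in MitoPositive cells (Il2ra, Il2rb and Il12rb2), beside 2.34% of all genes (1.26% called higher). The same block fitted on the sorted groups alone called 8, beside 18.2%. Leaving out 1 library gave 2 calls without monoculture B or monoculture D and 3 calls without MitoPositive D. All 10 fitted differences were above 0, as were 49.9% of those over all genes, and their median was 0.33 on the log2 scale.

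**Figure D1:**
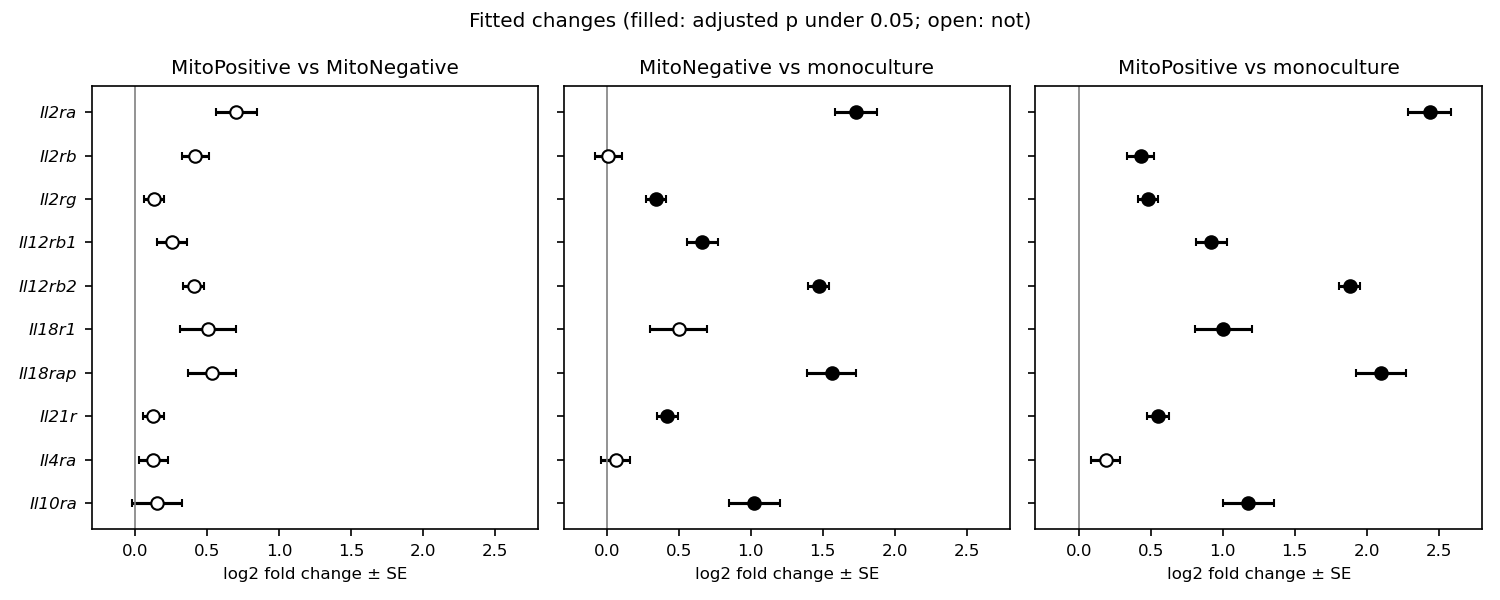
Fitted log2 fold change of each receptor gene (x axis, with its standard error as the bar) for the 3 comparisons of 3 libraries each. Filled points passed an adjusted p of 0.05 and open points did not. In the left panel all 10 points are open and above 0, while 7 and 9 points are filled in the other panels.

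Il2ra (ENSMUSG00000026770.5, chromosome 2, 11642807 to 11693193) differed most between MitoPositive cells and monoculture among the 10 genes. Its level was 122, 85.0 and 95.9 CPM in monoculture B, C and D, then 318, 350.1 and 336 CPM in MitoNegative and 549, 635 and 453 CPM in MitoPositive cells. No library of 1 group reached the range of another, and the widest spread was among the MitoPositive libraries. Il2ra rose 5.41-fold in MitoPositive cells against monoculture (log2 2.44 ± 0.150 SE, adjusted p = 1.34e-06, edgeR) and 3.32-fold in MitoNegative cells (1.73 ± 0.146, adjusted p = 1.57e-05, edgeR). It was 1.63-fold higher in MitoPositive than in MitoNegative cells without passing the test (0.71 ± 0.142, adjusted p = 0.0838, edgeR). With the letter as a block the same difference passed (0.70 ± 0.137, adjusted p = 0.0399, edgeR). It also passed without monoculture B and without MitoPositive D, where the adjusted p was 0.0378 and 0.0253 in edgeR.

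Il2ra is also a defining gene of regulatory T cells. Foxp3, the factor that defines those cells, averaged 0.281 CPM in monoculture, 0.273 in MitoNegative and 0.327 in MitoPositive cells, and Cd4 averaged 2.06, 1.1 and 0.823 CPM. Ikzf2, expressed by regulatory and by some activated CD8+ T cells, averaged 76.9, 157 and 142 CPM. The 4 markers of CD4+ and regulatory T cells summed to 96.9 to 168, 173 to 243 and 160 to 229 CPM, and Ikzf2 and Zbtb7b made up nearly all of it. The part of such cells in the Il2ra level was not tested.

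Il2rb (ENSMUSG00000068227.9, chromosome 15, 78479256 to 78495271), the signalling chain shared by IL-2 and IL-15, differed in MitoPositive cells only by a modest fold and showed no detected difference between MitoNegative cells and monoculture. It stood at 646, 640.0 and 766 CPM in monoculture, 626, 729 and 713 CPM in MitoNegative and 891, 1004 and 870.1 CPM in MitoPositive cells. The first 2 groups overlap, and all 3 MitoPositive libraries lie above them. Il2rb rose 1.35-fold against monoculture in MitoPositive cells (0.43 ± 0.0942, adjusted p = 0.00314, edgeR). That call is lost when all libraries lettered C are left out (0.32, adjusted p = 0.0943). In MitoNegative cells its fold was 1.01 (0.01 ± 0.0941, adjusted p = 0.936, edgeR). Its log2 difference between the sorted groups was 0.42 ± 0.0942 (adjusted p = 0.0945, edgeR), and 0.42 ± 0.0877 with the block (adjusted p = 0.0367, edgeR). Without monoculture D it passed as well, with an adjusted p of 0.0441 in edgeR.

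Il2rg (ENSMUSG00000031304.18, chromosome X, 101264378 to 101268255), the common gamma chain, rose 1.39-fold in MitoPositive and 1.27-fold in MitoNegative cells. It was counted at 266, 262 and 305 CPM in monoculture, at 351, 348 and 358 CPM in MitoNegative and at 404, 372 and 384 CPM in MitoPositive cells. The 3 ranges do not overlap, but the step between the sorted groups is small. The log2 change was 0.48 ± 0.0694 in MitoPositive cells (adjusted p = 0.000196, edgeR) and 0.34 ± 0.0693 in MitoNegative cells (adjusted p = 0.00223, edgeR) against monoculture. The second call is lost without the libraries lettered C (0.31, adjusted p = 0.0565). The difference between the sorted groups was 0.14 ± 0.0692 and did not pass (adjusted p = 0.538, edgeR).

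**Figure D2:**
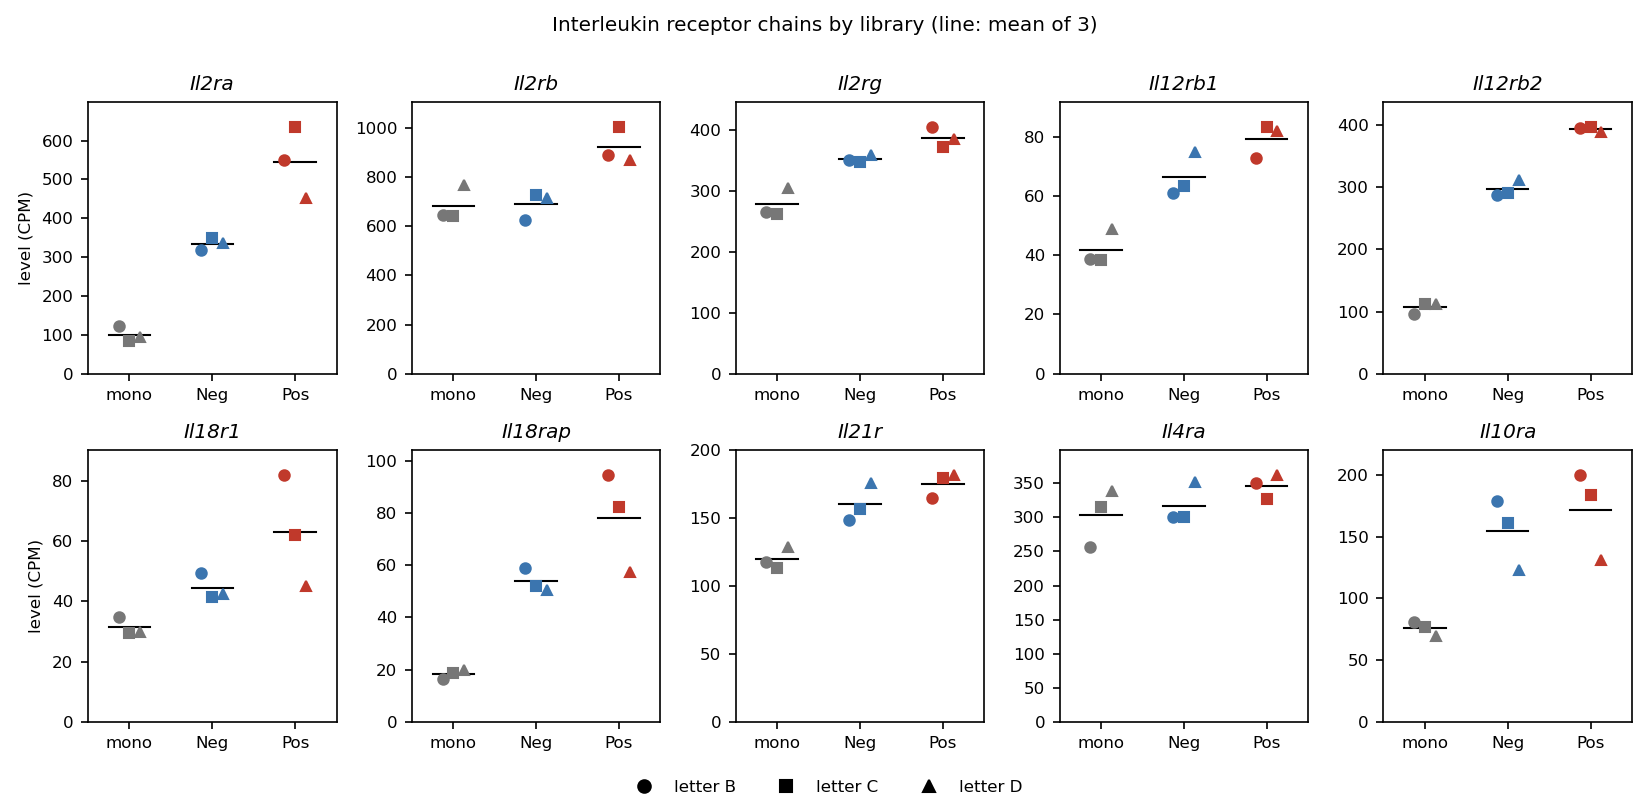
Level of each receptor gene in CPM (y axes, each with its own scale) in the 9 libraries, with the mean of 3 libraries as a line and the letter as the symbol. Il2ra steps up from 84.96 to 121.7 CPM in monoculture to 452.6 to 635.4 CPM in MitoPositive cells, while the ranges of Il4ra overlap in all 3 groups.

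Il12rb2 (ENSMUSG00000018341.12, chromosome 6, 67291318 to 67376188), the inducible chain that recruits STAT4, rose in both sorted groups with the smallest adjusted p of the 10 genes in each comparison with monoculture. It stood at 95.3, 113 and 112 CPM in monoculture, at 287, 290.3 and 312 CPM in MitoNegative and at 395, 397 and 389 CPM in MitoPositive cells. The groups are separated by gaps wider than the spread within any of them. The gene rose 3.68-fold in MitoPositive cells (1.88 ± 0.0739, adjusted p = 2.22e-08, edgeR) and 2.77-fold in MitoNegative cells against monoculture (1.47 ± 0.0731, adjusted p = 1.52e-07, edgeR). Between the sorted groups the difference was 0.41 ± 0.0714 (adjusted p = 0.0542, edgeR), and 0.41 ± 0.0650 with the block (adjusted p = 0.0144, edgeR). It passed without monoculture B and without monoculture D, where the adjusted p was 0.0341 and 0.0372 in edgeR.

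Il12rb2 shares 1519 of its 3794 exon bases with Serbp1 on the other strand in the GENCODE M21 annotation, and the strand setting of the counting is not given in the sources used here. Serbp1 was counted far higher, at 843.9, 941.9 and 1032 CPM on average in monoculture, MitoNegative and MitoPositive cells. Its log2 difference between the sorted groups was 0.13 and did not pass (adjusted p = 0.659, edgeR), and it rose by 0.29 in MitoPositive cells against monoculture (adjusted p = 0.0179, edgeR). Whether reads of Serbp1 are part of the Il12rb2 counts was not tested.

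Il12rb1 (ENSMUSG00000000791.9, chromosome 8, 70808449 to 70821424), the chain shared by the IL-12 and IL-23 receptors, was lower than its partner and rose less. Its levels were 38.7, 38.2 and 48.7 CPM in monoculture, 61.1, 63.3 and 74.7 CPM in MitoNegative and 72.7, 83.3 and 81.8 CPM in MitoPositive cells. The sorted groups overlap each other, and both lie above monoculture. The log2 change was 0.92 ± 0.106 in MitoPositive (adjusted p = 5.01e-05, edgeR) and 0.66 ± 0.106 in MitoNegative cells (adjusted p = 0.000588, edgeR). The difference between the sorted groups was 0.26 ± 0.105 (adjusted p = 0.419, edgeR).

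Il18rap (ENSMUSG00000026068.11, chromosome 1, 40515362 to 40551705), the accessory chain without which the IL-18 receptor does not signal, had the lowest level per kilobase of the 10 genes in every group, but came close to its partner in the sorted cells. It was at 16.4, 18.7 and 19.7 CPM in monoculture, 58.9, 52.1 and 50.6 CPM in MitoNegative and 94.5, 82.4 and 57.4 CPM in MitoPositive cells. MitoPositive D lies within the MitoNegative range, and the other 2 MitoPositive libraries lie above it. Il18rap rose 4.28-fold in MitoPositive cells (2.10 ± 0.173, adjusted p = 2.22e-05, edgeR) and 2.95-fold in MitoNegative cells (1.56 ± 0.171, adjusted p = 0.000153, edgeR). The difference between the sorted groups was 0.54 ± 0.164 and did not pass (adjusted p = 0.261, edgeR). Without MitoPositive D it was 0.72 and passed (adjusted p = 0.00755, edgeR).

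Il18r1 (ENSMUSG00000026070.15, chromosome 1, 40465552 to 40500854), the chain that binds IL-18, lies next to Il18rap and changed less. Its levels were 34.9, 29.6 and 29.8 CPM in monoculture, 49.2, 41.6 and 42.4 CPM in MitoNegative and 81.9, 62.1 and 45.2 CPM in MitoPositive cells. MitoPositive D again overlaps the MitoNegative libraries, and both sorted groups lie above monoculture. Il18r1 rose 2.01-fold in MitoPositive cells (1.005 ± 0.196, adjusted p = 0.00388, edgeR), a call lost without the libraries lettered C (0.98, adjusted p = 0.0786). In MitoNegative cells the change of 0.50 ± 0.196 did not pass (adjusted p = 0.0785, edgeR), but passed with the letter as a block (adjusted p = 0.00544, edgeR). It also passed without MitoPositive B and without MitoPositive D, with adjusted p of 0.00914 and 0.00613 in edgeR. These libraries enter that value only through the shared estimate of the spread. Between the sorted groups the difference was 0.51 ± 0.194 (adjusted p = 0.412, edgeR), and 0.70 without MitoPositive D, where it passed (adjusted p = 0.0402, edgeR).

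The natural killer cell markers, which mark another cell type known for IL-12 and IL-18 receptors, summed to 2.1 to 4.34 CPM in monoculture, 3 to 4.34 in MitoNegative and 1.45 to 1.84 in MitoPositive cells. Their part in the IL-12 and IL-18 receptor levels was not tested.

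Il21r (ENSMUSG00000030745.9, chromosome 7, 125603429 to 125633570), the IL-21 binding chain that pairs with Il2rg, rose 1.46-fold in MitoPositive and 1.34-fold in MitoNegative cells. It was at 118, 113 and 129 CPM in monoculture, 149, 157 and 176 CPM in MitoNegative and 165, 179.8 and 182 CPM in MitoPositive cells. The sorted groups overlap. Its log2 change was 0.55 ± 0.0759 in MitoPositive (adjusted p = 0.000137, edgeR) and 0.42 ± 0.0758 in MitoNegative cells (adjusted p = 0.00109, edgeR), and 0.13 ± 0.0756 between the sorted groups (adjusted p = 0.614, edgeR).

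Il4ra (ENSMUSG00000030748.9, chromosome 7, 125552120 to 125579474), the neighbour of Il21r and another partner of Il2rg, showed no difference that passed. It stood at 257, 315 and 339 CPM in monoculture, 300.2, 299.96 and 351 CPM in MitoNegative and 349.8, 327 and 362 CPM in MitoPositive cells. All 3 groups overlap, with monoculture B the lowest library. The log2 difference was 0.19 ± 0.1 between MitoPositive cells and monoculture (adjusted p = 0.152, edgeR), 0.06 ± 0.1 between MitoNegative cells and monoculture (adjusted p = 0.666, edgeR) and 0.13 ± 0.1 between the sorted groups (adjusted p = 0.732, edgeR). Leaving out monoculture D brought the first of these to 0.29 with an adjusted p of 0.038 in edgeR.

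Il10ra (ENSMUSG00000032089.16, chromosome 9, 45253837 to 45269149), the ligand-binding chain of the IL-10 receptor, which signals mainly through STAT3, rose in both sorted groups. It was at 81.1, 76.9 and 69.3 CPM in monoculture, 179, 161 and 123 CPM in MitoNegative and 199.8, 184 and 131 CPM in MitoPositive cells. The libraries lettered D are lowest in each group, and the sorted groups overlap. Il10ra rose 2.26-fold in MitoPositive (1.18 ± 0.178, adjusted p = 0.000822, edgeR) and 2.03-fold in MitoNegative cells (1.02 ± 0.177, adjusted p = 0.00207, edgeR). The sorted groups differed by 0.15 ± 0.175 (adjusted p = 0.846, edgeR).

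Il21r, Il4ra and Il10ra are also expressed by B cells. Of the 10 B cell markers, 7 fell in MitoPositive and 6 fell in MitoNegative cells against monoculture, and their summed level was lowest in MitoPositive cells. The part of B cell transcripts in the Il21r, Il4ra and Il10ra levels was not tested.

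Within each letter, the MitoPositive library exceeded the MitoNegative library for every receptor gene, 30 of 30 differences, and all 10 genes were higher in all 3 letters beside 25.2% of all genes. The ranges of the sorted groups did not overlap for 4 of the 10 (Il2ra, Il2rb, Il2rg and Il12rb2), beside 10.5% of all genes that were higher without overlap. For Il2ra the difference in log2 CPM was 0.79 in letter B, 0.86 in C and 0.43 in D. Il18r1 varied most, with 0.73 in B, 0.58 in C and 0.09 in D. Letter D gave the smallest difference for 9 of the 10 genes, Il2rg being the exception, beside 1874 (47.5%) of the 3948 genes that were higher in every letter and had reads in all 6 sorted libraries. The genes are measured in the same libraries, so these counts are not independent of each other.

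**Figure D3:**
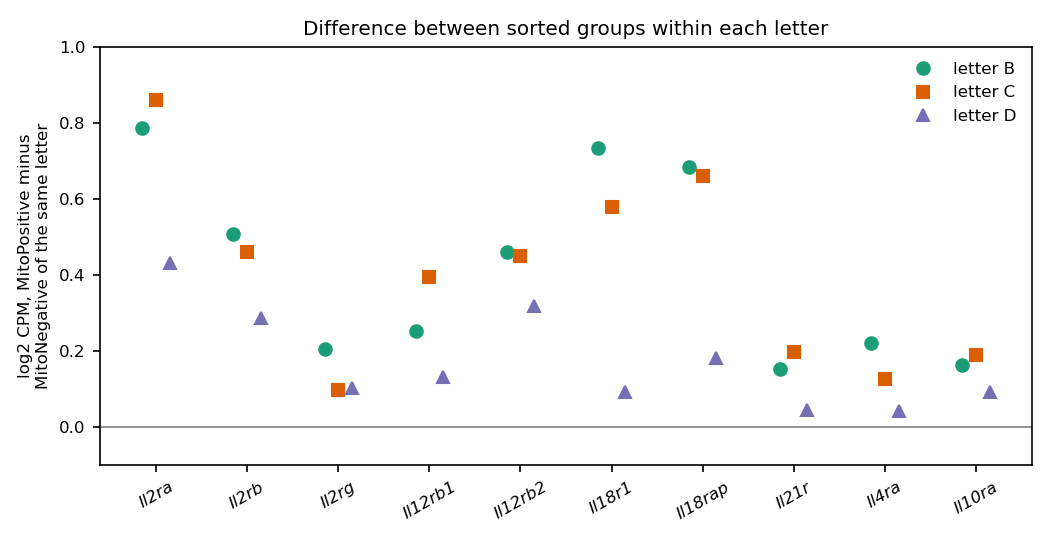
Difference in log2 CPM between the MitoPositive and MitoNegative library of the same letter (y axis) for each receptor gene, with 1 symbol per letter. All 30 points lie above 0, and the letter D points are the lowest for every gene except Il2rg.

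Levels were compared between genes as CPM per kilobase of exon, a scale on which longer transcripts do not count more. In monoculture the order from the highest mean was Il2rb (160 ± 16.6 SD, n = 3), Il2rg (116), Il4ra (50.6), Il21r (36.1), Il12rb2 (28.2), Il10ra (21.7), Il2ra (17.7), Il12rb1 (10.2), Il18r1 (6.53) and Il18rap (2.704). Only Il10ra and Il2ra overlapped among neighbours in that order. In MitoPositive cells Il2rb (215 ± 16.8 SD, n = 3) and Il2rg (162) still led, followed by Il12rb2 (104) and Il2ra (95.5), which overlapped each other. Il4ra (57.7), Il21r (52.8) and Il10ra (49.0) formed an overlapping run below them, with Il12rb1 (19.3), Il18r1 (13.1) and Il18rap (11.6) last, the final pair overlapping. In MitoNegative cells the ranks were the same, but Il2rb (161) and Il2rg (147) overlapped, and Il2ra (58.6) overlapped Il4ra (52.9). Il2ra thus stood 7th in monoculture and 4th in both sorted groups, and Il12rb2 moved from 5th to 3rd. Part of the exon length of Il12rb2 (1519 of 3794 bases), Il2rg (728 of 2387) and Il4ra (571 of 6002) is shared with other genes. These overlaps are from GENCODE M21, and their effect on the levels was not tested.

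The chains of each receptor were set beside each other as ratios of CPM per kilobase. None of 9 tests of these ratios could pass, because 3 against 3 libraries allow no exact permutation p below 0.1. Il2ra reached 0.141, 0.0997 and 0.0939 of the Il2rb level in monoculture B, C and D, 0.381, 0.361 and 0.353 of it in MitoNegative and 0.463, 0.475 and 0.391 of it in MitoPositive cells. The log2 ratio was higher by 2.01 ± 0.204 (SE) in MitoPositive and by 1.73 ± 0.187 in MitoNegative cells than in monoculture, and by 0.27 ± 0.0943 in MitoPositive than in MitoNegative cells. Il12rb2 stood at 2.67, 3.19 and 2.495 times the Il12rb1 level in monoculture, 5.08, 4.96 and 4.52 times in MitoNegative and 5.87, 5.16 and 5.15 times in MitoPositive cells. Its log2 ratio was higher by 0.96 ± 0.124 in MitoPositive and by 0.81 ± 0.118 in MitoNegative cells than in monoculture, and by 0.15 ± 0.0815 between the sorted groups.

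For the IL-18 receptor the ratio lay nearer to equal levels in the sorted groups than in monoculture. Il18r1 stood at 2.98, 2.23 and 2.12 times the Il18rap level in monoculture, against 1.172, 1.119 and 1.175 times in MitoNegative and 1.214, 1.056 and 1.105 times in MitoPositive cells. The log2 ratio was lower by a difference of -1.104 ± 0.165 in MitoPositive and -1.06 ± 0.156 in MitoNegative cells, with overlapping sorted groups (-0.04 ± 0.0636, exact two-sided permutation p = 0.6). In the other 8 of these 9 tests the groups did not overlap, and the exact permutation p was 0.1, the smallest that 3 against 3 libraries allow, with an adjusted p of 0.112.

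**Figure D4:**
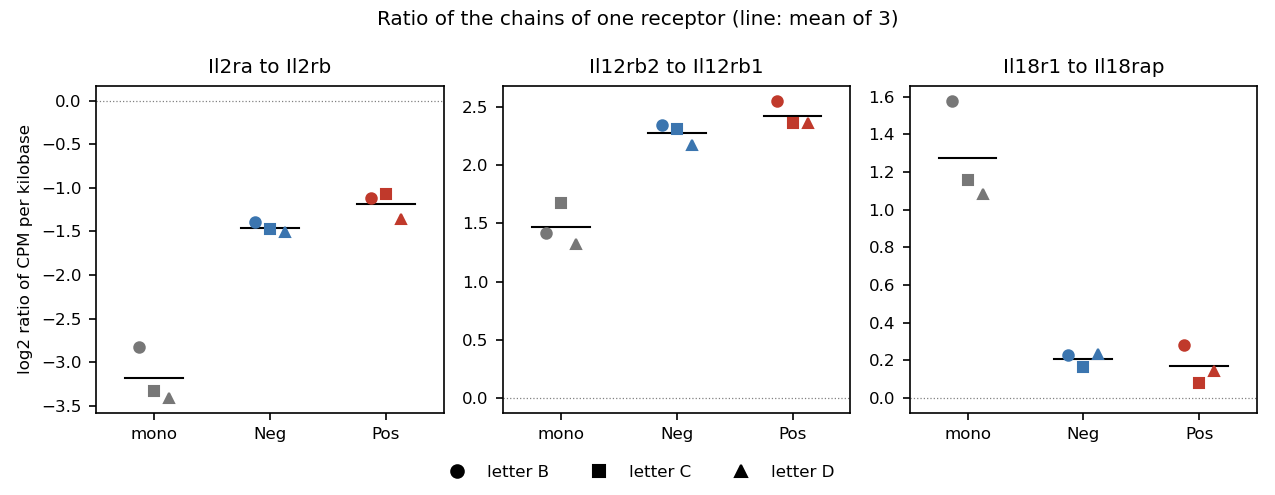
Log2 ratio of CPM per kilobase (y axes) between chains of the IL-2, IL-12 and IL-18 receptors in each library of monoculture (mono), MitoNegative (Neg) and MitoPositive (Pos) cells, with the mean of 3 as a line. The means run from -3.19 to -1.45 and -1.18 for Il2ra to Il2rb, and from 1.27 to 0.21 and 0.17 for Il18r1 to Il18rap.

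Genes known as targets of these receptors were counted from lists. The lists do not separate induced from repressed targets, so the counts describe direction of change and show no signalling. Of 16 IL-2 and STAT5 targets, 14 rose and 0 fell in MitoPositive cells against monoculture, beside 22.3% and 19.9% of all genes. In MitoNegative cells 11 rose and 1 (Bcl2, which protects from cell death) fell against monoculture, beside 20.6% and 18.3%. Cish, a feedback inhibitor induced by STAT5, averaged 16.6 CPM in monoculture, 68.4 in MitoNegative and 87.5 in MitoPositive cells and rose by 2.39 ± 0.0913 on the log2 scale in the last (adjusted p = 1.78e-08, edgeR). The fall of Bcl2 was not called without monoculture C or without MitoNegative C. Gzmb, the cytotoxic protease granzyme B, rose from 37.5 CPM to 499 and 791 CPM. The median log2 change of the list was 0.99 in MitoPositive and 0.67 in MitoNegative cells.

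Between the sorted groups 1 of these 16 genes passed, Prdm1, beside 0.165% of all genes. Prdm1 encodes the transcriptional repressor Blimp-1, a factor of effector differentiation. Its log2 difference was 0.81 (adjusted p = 0.0464, edgeR). It missed the threshold with total counts as the scale (adjusted p = 0.0532). That call is not held without monoculture C (adjusted p = 0.062), without any 1 of the 3 MitoNegative libraries (0.067 to 0.23) or without MitoPositive B or C (0.175 and 0.267). With the letter as a block, 5 of the 16 passed as higher (Prdm1, Socs2, Ccnd3, Myc and Pim2) and 1 as lower (Bcl6). The shares over all genes were 1.26% higher and 1.08% lower with the block. DESeq2 called 7 of the 16, beside 2.66% of all genes. Without monoculture D the edgeR calls were 2 higher and 1 lower, and without MitoPositive D they were 3 higher. The median over the list was 0.30, beside 0 over all genes.

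Of 10 IL-12, IL-18 and STAT4 targets, 8 rose and 1 fell against monoculture in each sorted group. Over all genes 22.3% were called higher and 19.9% lower in MitoPositive cells, and 20.6% and 18.3% in MitoNegative cells. Ifng, which encodes interferon gamma, averaged 4.04 CPM in monoculture, 71.3 in MitoNegative and 142 in MitoPositive cells, a rise of 5.14 ± 0.497 (adjusted p = 0.000251, edgeR) and 4.14 ± 0.482 (adjusted p = 0.000749, edgeR). Map3k8, a kinase upstream of ERK, rose from 8.39 CPM to 54.1 and 64.0 CPM. Eomes, a T-box factor of memory cells, was the 1 that fell, from 15.9 CPM to 10.3 and 7.60 CPM. Its call in MitoNegative cells is lost without monoculture D, MitoNegative B or MitoNegative C. When the sorted groups were compared, 0 of the 10 passed in edgeR, beside 0.165% of all genes. At an unadjusted p under 0.05, 4 of them passed, beside 10.5%. DESeq2 called 1, beside 2.66% of all genes, and voom called 0, beside 0.21%. With the block 1 passed (Furin, a STAT4-induced protease), beside 2.34%, and 1 passed without MitoPositive D. The list's median log2 difference was 2.03 for MitoPositive and 1.52 for MitoNegative cells against monoculture, and 0.34 between the sorted groups.

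**Figure D5:**
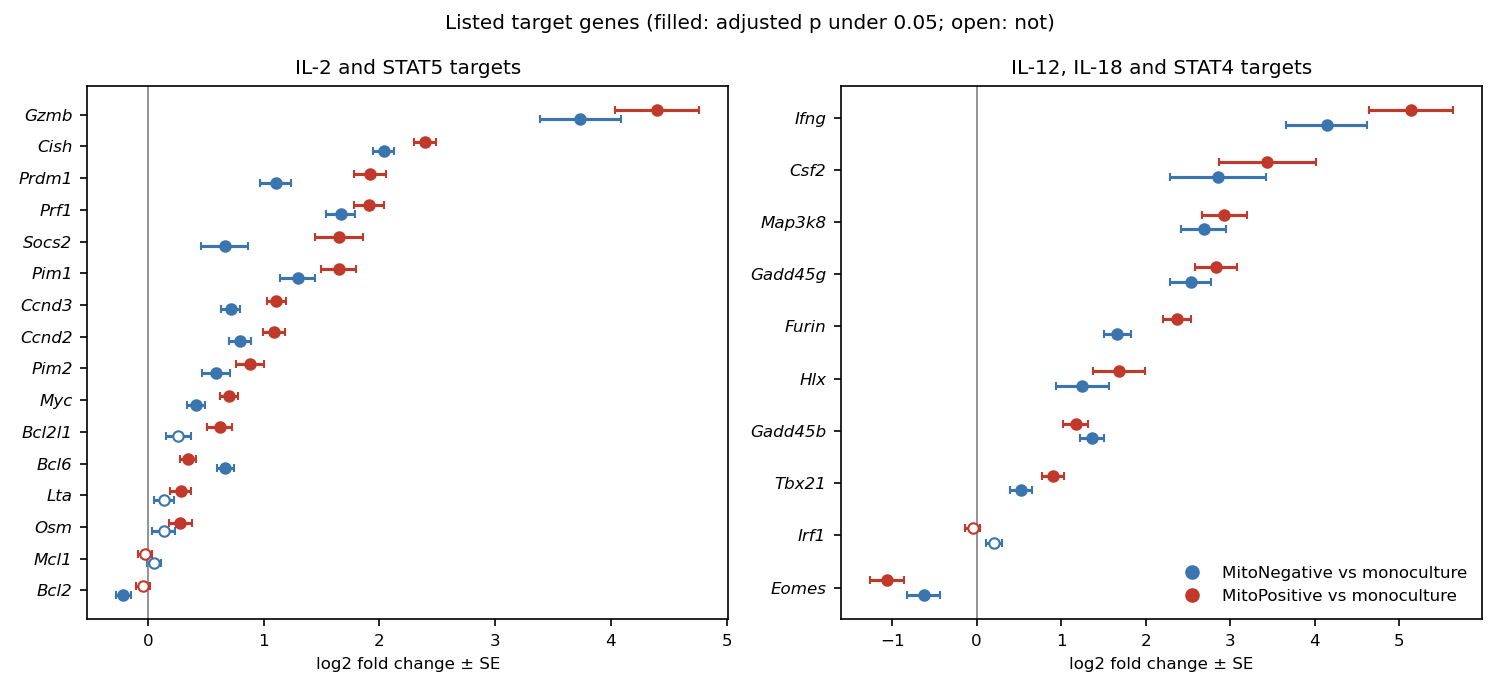
Log2 fold change against monoculture, with its standard error, for the listed IL-2 and STAT5 targets (left) and IL-12, IL-18 and STAT4 targets (right) in MitoNegative and MitoPositive cells. Points are filled where the adjusted p was under 0.05, which holds for 14 of 16 and 8 higher with 1 lower of 10 in MitoPositive cells.

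Transcripts of the listed interleukin ligands were low in all 9 libraries. Ligand made by the stromal cells or present in the medium was not measured. Of 14 listed ligand genes 7 passed the filter, and 4 of them rose against monoculture in each sorted group. Over all genes 22.3% were called higher in MitoPositive and 20.6% in MitoNegative cells. Il10 and Il12b averaged only 0.0164 and 0.0605 CPM in monoculture. They passed the filter through the sorted groups, at 0.371 and 0.568 CPM in MitoNegative and 0.47 and 0.412 CPM in MitoPositive cells. No fall could have been called for them, and 0 of the 7 fell. The part of stromal transcripts in the Il10 and Il12b levels was not tested. Ebi3, the shared subunit of IL-27 and IL-35, was the most abundant of those that rose, at 6.62, 11.9 and 17.0 CPM in monoculture, MitoNegative and MitoPositive cells. Il2 itself averaged 0.0607, 0.126 and 0.177 CPM and did not pass in any comparison. The count in MitoPositive cells was 2 when the libraries lettered C were left out.

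The 21 genes that passed the filter, of 25 listed as other interleukin receptor chains, changed in both directions. Against monoculture, 6 rose and 6 fell in MitoPositive and 6 rose and 5 fell in MitoNegative cells. Among all genes 22.3% were called higher and 19.9% lower in MitoPositive cells, and 20.6% and 18.3% in MitoNegative cells. Il18bp, counted among the 21, encodes a secreted IL-18 binding protein and not a receptor chain. It rose in both sorted groups, averaging 1.75 CPM in monoculture, 3.39 in MitoNegative and 3.11 in MitoPositive cells. The count that fell in MitoNegative cells was 3 without monoculture C or without MitoNegative B. Il1r1, Il1r2, Il1rl1 and Il9r averaged only 0.011, 0.0332, 0.116 and 0.16 CPM in monoculture and passed the filter through the sorted groups. They averaged 0.2, 0.466, 0.807 and 0.66 CPM in MitoNegative and 0.145, 0.922, 1.15 and 0.558 CPM in MitoPositive cells. No fall could have been called for them. The 14 stromal markers summed to 0.737 to 1.15 CPM in monoculture, 11.9 to 33.7 in MitoNegative and 12.4 to 32.9 in MitoPositive cells. The part of stromal transcripts in these low receptor levels was not tested. Il5ra instead passed the filter through monoculture, at 0.363, 0.156 and 0.098 CPM in monoculture, MitoNegative and MitoPositive cells. Il17ra, the IL-17 receptor chain, fell from 283 CPM to 166 and 132 CPM, and Il6st, the gp130 chain of the IL-6 family, fell from 169 CPM to 103 and 104 CPM. Il7r, the IL-7 receptor chain that pairs with Il2rg, averaged 507, 442 and 545 CPM and passed in no comparison.

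Of 18 tested kinases, STATs and adaptors, 3 rose and 7 fell in MitoPositive and 6 rose and 6 fell in MitoNegative cells, again beside 22.3% higher and 19.9% lower over all genes in MitoPositive and 20.6% and 18.3% in MitoNegative cells. Stat2, Stat3 and Irak2, an IL-1 and IL-18 receptor kinase, rose in both. Jak1, the kinase bound by most of these receptors, and Irak3, which restrains IRAK signalling, fell in both. Among 13 feedback inhibitors 4 rose and 3 fell in MitoPositive, and 6 rose and 3 fell in MitoNegative cells, with Cish, Socs1 and Socs2 rising and Ptpn6, Socs4 and Pias1 falling in both. The 3 that fell became 1 in MitoPositive cells without monoculture B or MitoPositive D, and 1 in MitoNegative cells without MitoNegative C. Of 5 tested STAT3 and STAT6 targets, the coactivator gene Bcl3 rose and the Ikaros family gene Ikzf3 fell in both, and the other 3 passed in neither.

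Between the sorted groups, 0 ligands, 0 other receptor chains, 0 kinases, STATs and adaptors, 0 feedback inhibitors and 0 STAT3 and STAT6 targets passed in edgeR. The share over all genes was 0.165%. At an unadjusted p under 0.05 the counts were 1 of 7, 5 of 21, 3 of 18, 4 of 13 and 2 of 5 in that order, beside 10.5% of all genes. DESeq2 called 1, 1, 0, 3 and 0 of them, beside 2.66% of all genes. With voom 1 ligand and 0 of the others were called, beside 0.21%. With the letter as a block, Ebi3 and Socs2 passed as higher and Il17ra, Il6ra, Stat2 and Socs3 as lower in MitoPositive cells. That block called 1.26% of all genes higher and 1.08% lower. Without monoculture B 1 ligand and 1 other chain passed, without monoculture D 1 ligand, and without MitoPositive D 1 feedback inhibitor.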

How the data were processed

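The authors deposited 1 table of read counts per gene, and the values used here are those raw counts. Per the submitters' processing notes, bcl2fastq, cutadapt, STAR 2.7, featureCounts, DESeq2 and the GRCm38 build were used. The strand setting and annotation release are not given in the sources used here. The 99 spike-in rows held 0 counts. Genes were kept by edgeR's filter (minimum count 10, minimum total 15), which left 15711 genes that hold 99.96% or more of every library's counts. One quasi-likelihood fit over the 9 libraries (edgeR 4.0.16, TMM scaling, R 4.3.3) gave the 3 comparisons with Benjamini-Hochberg adjustment over all tested genes and 6 residual degrees of freedom. CPM values are TMM-scaled, and CPM per kilobase uses the exon length in the table. Alternatives were other scalings, no filter, DESeq2 1.42.0, voom in limma 3.58.1, the letter as a replicate block, only the groups compared, and leaving out libraries. Scripts were tested on simulated data. Chain ratios were compared by exact two-sided permutation tests.

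The letter pairs MitoPositive with MitoNegative libraries (correlations of deviations 0.402, 0.339 and 0.459) and MitoNegative with monoculture libraries (0.213, 0.153 and 0.111), each above 0.1, but not MitoPositive with monoculture, where letter C gave 0.0521. The pairing comes from the data, since the labels state no shared animal or day. The receptor genes and gene lists were chosen with earlier results of these data known. Named from the lists were genes called between the sorted groups, with or without the block, and up to 3 rises and 3 falls against monoculture with the largest change and a mean log2 CPM of at least 1. Il2, Il7r, Foxp3, Cd4, Ikzf2 and Ighm were named after their values were seen. One gene that the rule for likeness in pattern names is not reported here.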

Additional observations from a re-analysis of the deposited data

How the results depend on the processing

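Against monoculture, the receptor calls were stable: 9 in MitoPositive cells (7 to 10 when libraries were left out) and 7 in MitoNegative cells (6 to 8), with counts within 1.5 times under every alternative run. The count between the sorted groups was not. It was 0 with the settings reported, also with DESeq2 size factors, total counts as the scale or voom. It was 2 without the filter on low counts, 4 with DESeq2, 3 with the replicate block, 1 with only the 2 groups compared, 8 with the replicate block on those 2 groups, and 0 to 3 when libraries were left out. The cause was not tested. The replicate block also brought Il18r1 past the threshold in MitoNegative cells against monoculture and changed no other call among the receptor genes.

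Small differences changed sign when libraries were left out. The MitoNegative value of Il2rb against monoculture was -0.029 without monoculture B, -0.036 without monoculture C, -0.021 without MitoNegative C, -0.013 without MitoNegative D and -0.076 without all libraries lettered C, in a range of -0.076 to 0.11. That of Il4ra was -0.046 without monoculture B and -0.018 without MitoNegative D, in a range of -0.046 to 0.16. None of these passed.

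Over all genes, the 26 calls between the sorted groups (14 higher, 12 lower) became 15 with DESeq2 size factors (10 and 5), 14 with total counts (10 and 4), 171 without the filter, 418 with DESeq2, 367 with the replicate block, 65 with only the 2 groups and 2810 with both of the last. Leaving out libraries gave 0 to 120. Without the libraries lettered C, 4122 genes were called instead of 6637 in MitoPositive and 3495 instead of 6110 in MitoNegative cells against monoculture. Each receptor gene had at least 999 reads in each library.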

Other observations

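Over the 9 libraries, the genes whose log2 CPM followed Il2ra most closely, among 10704 genes compared, were Ptpn9 (Pearson r = 0.995), Adam8 (0.993), Slamf7 (0.993), Lamc1 (0.992) and Klhl8 (0.991). For Il12rb2 they included Psrc1 (0.997), Tnfrsf10b (0.997), Tnfsf4 (0.996) and Cdkn1a (0.996). A value above 0.9 was reached by 950 genes (8.88%) for Il2ra and 1181 genes (11%) for Il12rb2. The libraries fall into 3 separate groups and share their depth scaling, so these values describe a likeness in pattern and carry no p.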
